A study of Mus musculus with 18 samples.

Results

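The response of the mouse colon to recovery from dextran sulfate sodium (DSS) colitis was compared between WT mice and mice labelled as a claudin-2 knockout (*Cldn2*KO), to ask whether colon without claudin-2 changes differently as it heals. For each gene the difference between recovery and control was taken in each genotype, and the WT difference was subtracted from the *Cldn2*KO difference. This value is called the log2 interaction. A positive value says that the level moved further upward, or less far downward, from control to recovery in *Cldn2*KO than in WT. The 12 libraries of the 4 groups concerned were used, out of 18 in the series, with 3 libraries each of WT controls, WT mice in DSS recovery, *Cldn2*KO controls and *Cldn2*KO mice in DSS recovery. They were chosen by their genotype and treatment labels and not by any measured value. The mice were C57BL/6, the knockout was studied against WT littermates, and nothing in the labels ties a library to a cage, litter or sequencing day. The labels carry one treatment protocol for all samples, which names azoxymethane (AOM) with DSS, and do not state how long recovery lasted. The remaining 6 libraries, from mice given AOM with DSS, were not part of this comparison.

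Claudin-2 is a tight junction protein that forms a paracellular channel for small cations and water. DSS injures the colonic epithelium, and in the weeks after it is withdrawn the surface is resealed and crypts regrow, while signals such as NF-κB, STAT3 and EGF receptor activity rise and are then switched off by their own target genes. Among those feedback genes are *Socs3*, *Zc3h12a* and *Nfkbia*, and their transcripts are short-lived.

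The targeted gene was checked first. *Cldn2* (ENSMUSG00000047230, chromosome X, 139800828 to 139811386, plus strand in GRCm38) stood at 123, 41 and 120.3 counts per M reads after TMM scaling (CPM) in WT controls, and WT recovery libraries held 479, 289 and 464 CPM. In *Cldn2*KO mice controls held 0.188, 0.0536 and 0.153 CPM and recovery libraries 0.344, 0.522 and 0.378 CPM, and no library went against its genotype label. The *Cldn2*KO levels rest on 8 reads over the controls and 27 over the recovery libraries, and the log2 interaction of -0.52 (SE 0.94) was not called (edgeR adjusted p 0.807). With 1 library left out it ranged from -0.86 without *Cldn2*KO control replicate 2 to -0.16 without WT control replicate 2, and was -0.18 without *Cldn2*KO control replicate 1.

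Libraries held 17.6 to 26.0 M reads (median 19.4). All 12 expressed the colonic epithelial markers *Epcam* (1724 to 2277 CPM), *Krt8*, *Krt18*, *Vil1*, *Cdx2* and *Car1*. The level of *Cdx2* was 17.4 to 29.4 CPM in 5 of the 6 controls, 310 CPM in WT control replicate 2 and 201 to 232 CPM in recovery. Some features of the libraries did not follow genotype. *Hoxb13*, a gene of the posterior body axis that is used in the distal colon, stood at 423 to 542 CPM in 5 of the 6 controls, at 0.301 CPM in WT control replicate 2 and at most 0.470 CPM in recovery. WT control replicate 2 also stood at 41830 CPM of *Car1* against 538 to 4171 CPM in the other controls, at 56.1 CPM of the fat cell gene *Adipoq*, and at 238 CPM summed over 20 T and NK cell markers where WT control replicates 1 and 3 had 25.7 and 36.9 CPM. On the first principal component, which held 52.8% of the variance, it scored 22.2, while the other controls scored -83.5 to -73.9 and recovery libraries 53.9 to 69.1. *Xist* ranged from 809 to 1663 CPM in 4 recovery libraries, replicates 2 and 3 of each genotype, and was at most 1.04 CPM in the other 8. The study describes the tissue as distal colon. Low *Hoxb13* came with recovery in *Cldn2*KO, and with recovery and 1 control in WT, so that recovery and position along the colon cannot be told apart, while *Xist* was mixed within both recovery groups. The part of position and sex in the interaction was not tested except by the values given without WT control replicate 2 and with *Xist* as a covariate.

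Of 16308 genes tested, edgeR's quasi-likelihood test called 9 in the interaction at an adjusted p under 0.05 (0.0552%), 6 with a positive value (0.0368%) and 3 with a negative one (0.0184%). With the called genes included, 1368 genes had a positive value with an unadjusted p under 0.05 (8.39%) and 1602 a negative one (9.82%). The median log2 interaction over all genes was 0.004 and 50.3% of genes were positive. Genes with a positive value were the membrane protein gene *Plet1*, its antisense transcript *Plet1os*, the feedback genes *Zc3h12a* and *Socs3*, the NF-κB cofactor gene *Nfkbiz*, and *Ddah1*. Negative were *Tpd52l1*, *Gstt1* and the unprocessed pseudogene *Gm28438*.

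The number of calls depended on the test and on single libraries. DESeq2 called 721 genes (427 positive) and limma-voom with sample weights called 1561 (755 positive), and both lists contained all 9 genes. With each library left out in turn edgeR called 0 to 157 genes. It called 157 without *Cldn2*KO recovery replicate 1 (131 positive) and 69 without WT control replicate 2 (38 positive), and both of these lists again contained the 9 genes. Leaving out WT recovery replicate 2 removed every call, with 2470 genes still at an unadjusted p under 0.05, and without *Cldn2*KO recovery replicate 3 it called 10 genes, 6 of them among the 9. Leaving out any of the remaining 8 libraries left 1 or 2. With libraries that expressed *Xist* marked by a covariate 1 gene was called, *Plet1*. The sign of all 9 genes was the same in every one of these fits. Nothing in the labels says that the libraries came from separate mice, so the p-values measure the spread between these libraries.

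**Figure D1:**
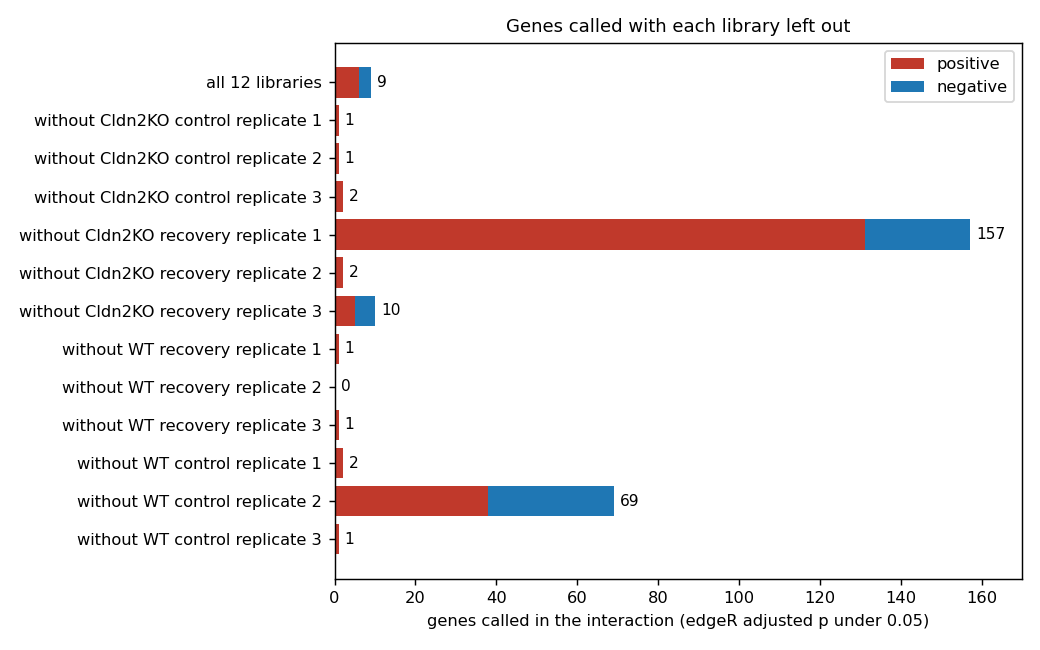
Bars give the number of genes called in the interaction by edgeR (adjusted p under 0.05) with all 12 libraries and with each library left out, positive values in red and negative values in blue. The count was 9 with all libraries, 157 without *Cldn2*KO recovery replicate 1 and 69 without WT control replicate 2.

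The gene *Plet1* (ENSMUSG00000032068, chromosome 9, 50494525 to 50505482, plus strand), which encodes a membrane protein known from placenta and epithelial progenitors, had the largest log2 interaction of the called genes with all libraries. Without WT control replicate 2 it was 6.35, against 6.385 for *Plet1os*. *Plet1* stood at 77.8, 127 and 49.8 CPM in WT controls and at 107, 102 and 68 CPM in WT recovery. The *Cldn2*KO controls held 1.03, 0.911 and 0.46 CPM and the *Cldn2*KO recovery libraries 54.9, 135 and 96.7 CPM. Only the *Cldn2*KO controls were low, and the 3 other groups overlapped. The response was 0.12 in WT and 6.88 in *Cldn2*KO on the log2 scale (log2 interaction 6.76, SE 0.62, edgeR adjusted p 0.00403, and 4.5e-25 to 0.0578 under the alternatives). *Plet1os* (ENSMUSG00000101304, chromosome 9, 50488795 to 50507823, minus strand) lies over *Plet1* on the other strand. It had 1 read over the 3 *Cldn2*KO controls and 408 over the *Cldn2*KO recovery libraries, a ratio of 377 with a 95% counting interval of 67.2 to 14910. WT libraries had 1.98 to 3.38 CPM in controls and 5.37 to 7.72 CPM in recovery, which did not overlap, whereas those of *Plet1* did (edgeR adjusted p of the interaction 0.047). Whether reads were counted by strand was not stated, so reads of this pair cannot be told apart.

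*Zc3h12a* (ENSMUSG00000042677, chromosome 4, 125118423 to 125127840, minus strand) encodes regnase-1, an RNase that degrades inflammatory mRNAs. It stood at 76.7, 49.3 and 65.4 CPM in WT controls and at 29, 22.4 and 20.4 CPM in WT recovery. In *Cldn2*KO it stood at 11.1, 13.9 and 16 CPM in controls and at 30.2, 65.2 and 35.2 CPM in recovery. WT and *Cldn2*KO libraries moved in opposite directions, and control and recovery libraries did not overlap in either genotype (log2 interaction 3.09, SE 0.41, edgeR adjusted p 0.0229, and 4.99e-09 to 0.113 under the alternatives). *Socs3* (ENSMUSG00000053113, chromosome 11, 117966079 to 117970047, minus strand), the feedback inhibitor of STAT3 signaling from IL-6 family receptors, held 27.8, 31.7 and 42.5 CPM in WT controls and 25.8, 24.2 and 23.7 CPM in WT recovery. The *Cldn2*KO controls were at 7.14, 7.93 and 7 CPM and *Cldn2*KO recovery at 20.4, 34.7 and 27.6 CPM. The *Cldn2*KO controls were the lowest 3 libraries of the 12, and the 2 recovery groups overlapped (log2 interaction 2.37, SE 0.30, edgeR adjusted p 0.0229, and 2.21e-09 to 0.109 under the alternatives).

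In all 6 positive called genes the *Cldn2*KO controls lay below every other library, and the promoters of 4 of them are shown. *Plet1* and *Plet1os* count as 2 of the 6, although their reads cannot be told apart. The window of *Plet1os* lies inside *Plet1* and is not shown, and *Nfkbiz* had no entry in the promoter table. The bases are the 250 before the RefSeq transcription start (GRCm38.p6), written 5′ to 3′ on the gene's strand, with matches in capitals to the STAT motif TTCNNNGAA, the NF-κB motif (GGGA, any 2 bases, TTCC) or the AP-1 motif TGANTCA, searched on both strands. For *Plet1* the window was chr9:50494275-50494524 (plus strand), for *Socs3* chr11:117969367-117969616 (minus strand), for *Zc3h12a* chr4:125127882-125128131 (minus strand) and for *Ddah1* chr3:145758442-145758691 (plus strand).
Plet1: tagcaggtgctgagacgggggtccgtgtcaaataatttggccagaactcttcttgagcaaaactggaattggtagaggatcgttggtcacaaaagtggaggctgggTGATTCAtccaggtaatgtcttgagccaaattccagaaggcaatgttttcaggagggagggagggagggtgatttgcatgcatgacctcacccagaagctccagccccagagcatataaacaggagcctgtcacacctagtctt
Socs3: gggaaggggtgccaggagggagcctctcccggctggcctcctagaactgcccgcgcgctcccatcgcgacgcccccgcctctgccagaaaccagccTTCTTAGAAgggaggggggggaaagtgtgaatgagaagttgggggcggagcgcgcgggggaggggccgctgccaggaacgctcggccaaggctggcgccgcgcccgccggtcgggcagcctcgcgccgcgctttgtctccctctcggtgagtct
Zc3h12a: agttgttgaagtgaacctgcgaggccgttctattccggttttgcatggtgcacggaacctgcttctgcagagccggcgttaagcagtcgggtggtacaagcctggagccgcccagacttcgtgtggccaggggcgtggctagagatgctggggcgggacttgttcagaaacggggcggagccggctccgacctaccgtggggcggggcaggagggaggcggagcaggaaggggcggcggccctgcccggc
Ddah1: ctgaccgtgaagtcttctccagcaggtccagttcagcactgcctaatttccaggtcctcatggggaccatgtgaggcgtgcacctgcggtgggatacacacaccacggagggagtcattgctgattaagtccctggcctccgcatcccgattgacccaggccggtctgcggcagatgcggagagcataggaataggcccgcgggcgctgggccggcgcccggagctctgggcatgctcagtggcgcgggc

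A STAT match began 154 bases before the RefSeq start of *Socs3*, and an AP-1 match 144 bases before that of *Plet1*. The *Socs3* window lies inside the gene span given above, so the annotations differ on where *Socs3* starts. None of the 3 motifs was found in the windows of *Zc3h12a*, *Ddah1* and *Plet1os*. Over 32851 RefSeq promoters of the same length, 7.02% held the STAT motif, 1.21% the NF-κB motif and 6.75% the AP-1 motif. Of the called genes and those next in rank, 18 with *Cldn2* had 24 promoters in the table. The STAT motif was in 5 of these promoters, the AP-1 motif in 2 and the NF-κB motif in 0. The 5 belonged to *Socs3* and to the negative genes *Nop58* and *Maged2*, and the 2 to *Plet1* and *Btnl2*. Counted by gene, the STAT motif was in 3 of the 18. More than 1 of the 5 promoters belonged to *Maged2*. Its windows at chrX:150813003-150813252 and chrX:150812980-150813229 overlap and hold the same match. These matches describe the letters only.

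*Nfkbiz* (ENSMUSG00000035356, chromosome 16, 55811375 to 55838899, minus strand) encodes IκBζ, an inducible cofactor of NF-κB. It stood at 137, 106 and 148 CPM in WT controls and 87.8, 75.3 and 77.1 CPM in WT recovery, against 46.5, 58.6 and 50.1 CPM in *Cldn2*KO controls and 83.4, 106 and 112 CPM in *Cldn2*KO recovery. All WT recovery libraries were below all WT controls, and all *Cldn2*KO recovery libraries above all *Cldn2*KO controls (log2 interaction 1.66, SE 0.24, edgeR adjusted p 0.0443, and 1.08e-07 to 0.18 under the alternatives). *Ddah1* (ENSMUSG00000028194, chromosome 3, 145758675 to 145894277, plus strand), whose product degrades an inhibitor of nitric oxide synthases, was higher in recovery in both genotypes, with the larger difference in *Cldn2*KO. It was at 67, 48.5 and 68.8 CPM in WT controls and 128, 92.9 and 118 CPM in WT recovery, with 15.1, 9.81 and 14.2 CPM in *Cldn2*KO controls and 78.7, 119.7 and 119.6 CPM in *Cldn2*KO recovery. The recovery groups overlapped and the control groups did not (log2 interaction 2.14, SE 0.32, edgeR adjusted p 0.047, and 5.89e-07 to 0.164 under the alternatives).

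Among the negative genes, *Tpd52l1* (ENSMUSG00000000296, chromosome 10, 31332380 to 31445921, minus strand), which encodes a small coiled-coil protein of vesicle traffic, stood at 0.776, 0.964 and 0.885 CPM in WT controls and 18.1, 26.5 and 15.6 CPM in WT recovery. It was at 2.63, 2.52 and 2.71 CPM in *Cldn2*KO controls and 11.6, 8.23 and 9.68 CPM in *Cldn2*KO recovery. Both genotypes were higher in recovery, and the 4 groups did not overlap, with WT at both ends of the range (log2 interaction -2.62, SE 0.34, edgeR adjusted p 0.0229, and 1.59e-06 to 0.109 under the alternatives). *Gstt1* (ENSMUSG00000001663, chromosome 10, 75783813 to 75798584, minus strand), a glutathione transferase, held 30.4, 25.4 and 30.8 CPM in WT controls and 41.1, 46.2 and 31.2 CPM in WT recovery. In *Cldn2*KO it held 46.6, 42.5 and 51.2 CPM in controls and 23.5, 21.5 and 19.1 CPM in recovery. The *Cldn2*KO recovery libraries were the lowest of the 12, while WT recovery lay above WT controls (log2 interaction -1.58, SE 0.24, edgeR adjusted p 0.047, and 9.75e-06 to 0.225 under the alternatives). *Gm28438* (chromosome 1, 24612775 to 24613119) was at 6.16 to 9.66 CPM in WT recovery and at most 0.689 CPM in the other groups (log2 interaction -3.84, SE 0.50, edgeR adjusted p 0.0229). It is annotated as an unprocessed pseudogene, whose reads may belong to the copy it came from, and is uncertain.

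**Figure D2:**
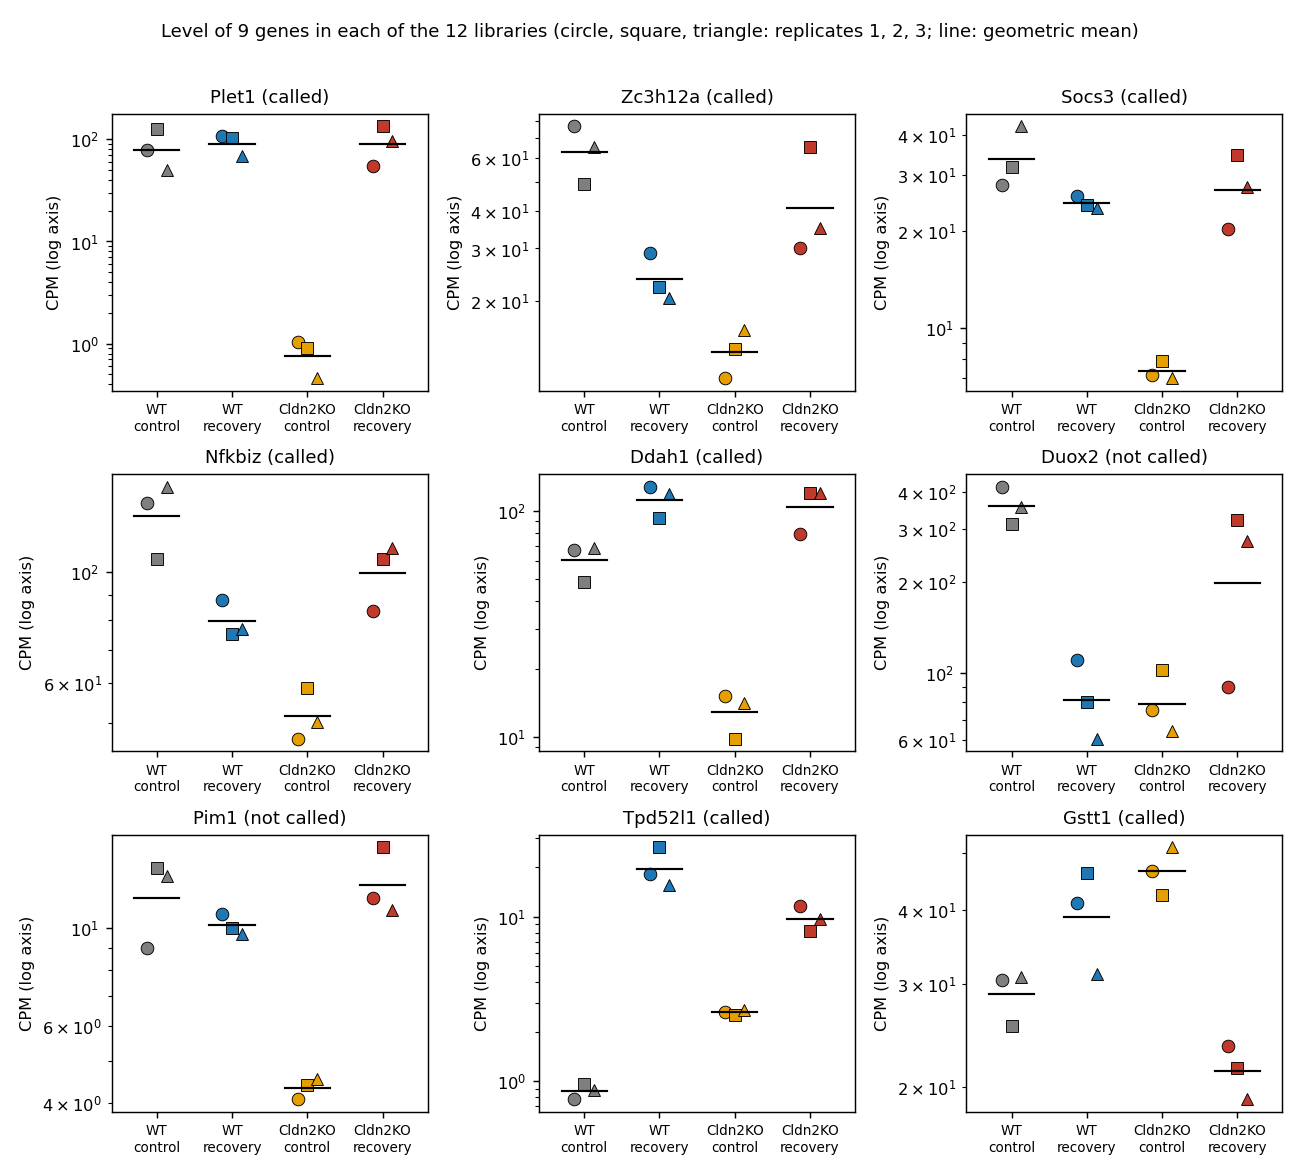
Each panel gives CPM on a log axis for 1 gene in the 12 libraries, by group, with a symbol for each replicate and a line at the geometric mean. In *Plet1*, *Zc3h12a*, *Socs3*, *Nfkbiz*, *Ddah1* and *Pim1* the *Cldn2*KO controls lie below the other 9 libraries, and *Duox2* and *Pim1* were not called.

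To fill each direction to 10 named genes, those with the smallest unadjusted p were added, none of them called. The 4 positive additions were *Duox2*, *Fgd6*, *Pim1* and *Btnl2*. *Duox2*, an epithelial oxidase that makes hydrogen peroxide at the mucosal surface, stood at 415, 312 and 355 CPM in WT controls and 110.2, 80.2 and 60.6 CPM in WT recovery. Its *Cldn2*KO controls were at 75.1, 102 and 64 CPM and its *Cldn2*KO recovery libraries at 90.2, 321 and 275 CPM. WT recovery overlapped the *Cldn2*KO controls, and *Cldn2*KO recovery replicate 1 stood apart from the other replicates (log2 interaction 3.62, SE 0.57, edgeR adjusted p 0.0516, and 0.00188 without that library or 0.0338 without WT control replicate 2, and 1.72e-07 to 0.223 under the alternatives). *Pim1*, a kinase gene induced by STAT proteins, was at 4.09, 4.39 and 4.55 CPM in *Cldn2*KO controls and between 8.98 and 15.2 CPM in the 9 other libraries (log2 interaction 1.77, SE 0.29, edgeR adjusted p 0.0647). *Btnl2*, a butyrophilin-like gene, was at 0.611, 0.804 and 1.28 CPM in *Cldn2*KO controls and 15.3 to 18.1 CPM in *Cldn2*KO recovery, against 10.8 to 46.4 and 20.5 to 20.9 CPM in WT controls and recovery (log2 interaction 4.39, SE 0.72, edgeR adjusted p 0.0647). *Fgd6*, a regulator of the small GTPase Cdc42, differed in form, since WT recovery (20.1 to 29 CPM) was the low group (log2 interaction 1.60, SE 0.25, edgeR adjusted p 0.0516).

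The 8 negative additions had log2 interactions from -3.08 (*Hist1h4h*, a histone gene with near-identical copies and uncertain) to -1.16. *Nop58*, a core protein of the particles that modify ribosomal RNA, stood at 58.9, 56.4 and 73.1 CPM in WT controls and 134, 151 and 131 CPM in WT recovery, with 93.8, 95.8 and 93 CPM in *Cldn2*KO controls and 92.9, 86.3 and 100 CPM in *Cldn2*KO recovery. WT recovery was above the 9 other libraries and WT controls were below them (log2 interaction -1.16, SE 0.19, edgeR adjusted p 0.0647). *Oat*, the mitochondrial ornithine aminotransferase, had the same order, at 143 to 154 CPM in WT controls, 329.5 to 414 CPM in WT recovery and 228 to 242 and 198 to 284 CPM in *Cldn2*KO controls and recovery (log2 interaction -1.31, SE 0.23, edgeR adjusted p 0.0725). In *Wfdc1*, *Nt5c3b*, *Tfpi*, *Maged2*, *Cdr2* and *Hist1h4h* the *Cldn2*KO response was negative, and in all of them but *Wfdc1* the WT response was positive.

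The place of the difference among the groups was examined for these 21 genes. They were chosen by their interaction, so the counts describe them and test nothing, and *Plet1* and *Plet1os*, whose reads cannot be told apart, count as 2. In 8 of the 10 positive genes, the *Cldn2*KO controls lay below all 9 other libraries (450 genes of those tested, 2.76%), and none of the 11 negative genes did so. In 2 of the 11 negative genes, *Wfdc1* and *Hist1h4h*, the *Cldn2*KO controls lay above the 9 others (861 genes of those tested, 5.28%). The genotype difference was larger in controls than in recovery for 17 of the 21, with median absolute log2 differences of 1.33 in controls and 0.737 in recovery, and for 7 of the 9 called genes (2.21 and 0.326). Among the 2970 genes with an unadjusted p under 0.05 it was larger in controls for 1062 (0.366 and 0.573), and over all genes tested for 7134 of 16308 (0.249 and 0.324). The responses of the genotypes had opposite signs in 15 of the 21 genes and in 4 of the 9 called genes. They did so in 2053 of the 2970 genes with an unadjusted p under 0.05, and in 5802 of all 16308 genes tested.

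**Figure D3:**
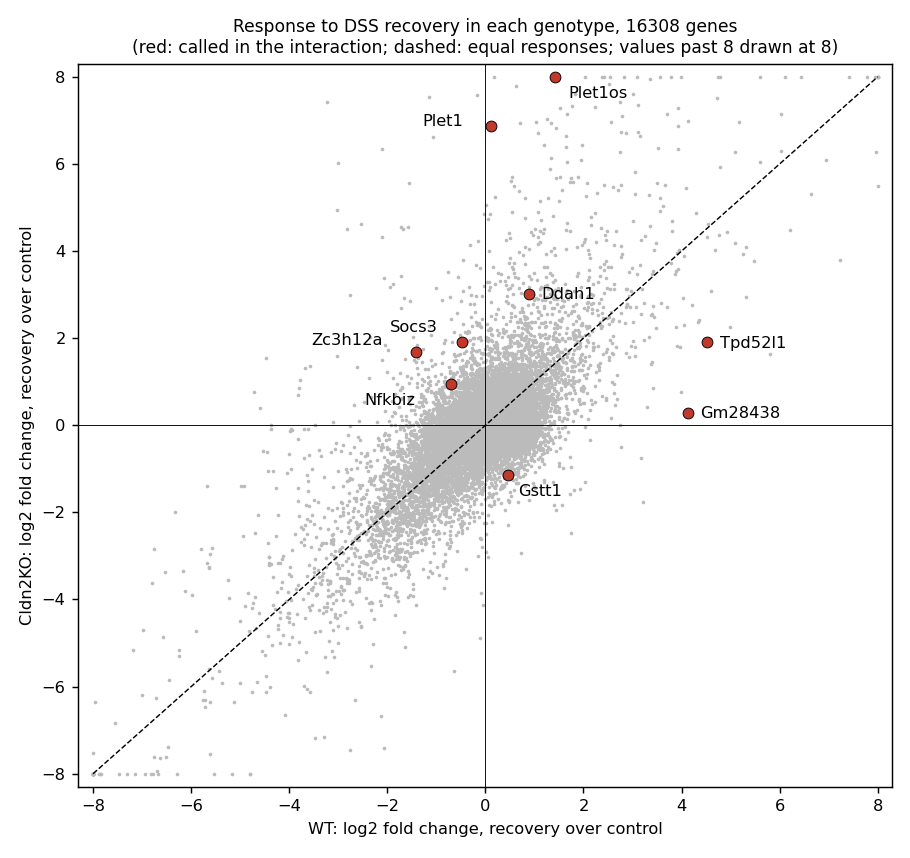
Each point is 1 of 16308 genes, with the log2 fold change of recovery over control in WT on the horizontal axis and in *Cldn2*KO on the vertical axis. The 9 called genes (red) lie away from the dashed line of equal responses, *Plet1* and *Plet1os* at 0.12 and 1.42 in WT and at 6.88 and 8.07 (drawn at the limit of 8) in *Cldn2*KO.

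Lists of genes for the pathways of colitis and repair were then described by their counts and medians, beside the 50.3% positive and the median of 0.004 over all genes. In the list of TNF and NF-κB inflammation 28 of 33 tested genes were positive, 2 were called (*Zc3h12a* and *Nfkbiz*), and 14 had an unadjusted p under 0.05 with a positive value and none with a negative one, where 8.39% and 9.82% of all genes did. The median log2 interaction was 1.05, from a median response of -0.70 in WT and 0.47 in *Cldn2*KO. Summed over the list, where the most abundant genes contribute most, levels were 1285 to 3397 CPM in WT controls and 930 to 1358 CPM in WT recovery. In *Cldn2*KO the sum was 2526 to 3088 CPM in controls and 1062 to 1495 CPM in recovery, so that it was lower in recovery, unlike the median. *Nfkbia*, the main inhibitor of NF-κB, stood at 99.8, 80.3 and 95.4 CPM in WT controls and 61.3, 44.4 and 58.7 CPM in WT recovery, with 47, 47.4 and 52.9 CPM in *Cldn2*KO controls and 59.1, 173 and 65.8 CPM in *Cldn2*KO recovery. All WT recovery libraries were below the WT controls and all *Cldn2*KO recovery libraries above the *Cldn2*KO controls, with replicate 2 far above its group (log2 interaction 1.76, SE 0.47, edgeR adjusted p 0.139, and log2 interaction 1.09 without that library). *Nfkb1*, a subunit of NF-κB, was at 58.9 to 94.6 CPM in WT controls, 37.5 to 54.4 CPM in WT recovery, 47.7 to 54.3 CPM in *Cldn2*KO controls and 61.4 to 81.5 CPM in *Cldn2*KO recovery (log2 interaction 1.05, SE 0.29, edgeR adjusted p 0.142). *Tnf* itself was low, at 8.02, 1.69 and 5.05 CPM in WT controls, 2.55, 0.738 and 1.3 CPM in WT recovery, 0.235, 0.643 and 1.07 CPM in *Cldn2*KO controls and 0.787, 11.2 and 2.83 CPM in *Cldn2*KO recovery (log2 interaction 4.59, SE 1.30, edgeR adjusted p 0.155). *Il6*, *Csf3* and *Cxcl3* did not pass the filter on low counts and reached at most 0.378 CPM. The median was 1.21 without WT control replicate 2 and 1.43 without *Cldn2*KO recovery replicate 1.

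The epithelial defence list of antimicrobial proteins and lectins had 20 of 28 genes positive (median 0.73), 9 of them at an unadjusted p under 0.05 and none in the other direction, and no call. Its median depended on WT control replicate 2 and was 0.24 without it, with 17 genes positive. The summed level, to which the most abundant genes contribute most, went the other way. It was 26970 to 33750 CPM in WT controls, 35930 to 42120 CPM in WT recovery, 24330 to 27950 CPM in *Cldn2*KO controls and 16790 to 22440 CPM in *Cldn2*KO recovery. *Duoxa2*, the maturation factor of *Duox2*, was at 91.3, 76.7 and 85.6 CPM in WT controls and 34.1, 11.4 and 15.5 CPM in WT recovery, with 8.37, 13.9 and 12 CPM in *Cldn2*KO controls and 12.9, 41.9 and 68.1 CPM in *Cldn2*KO recovery (log2 interaction 3.89, SE 0.76, edgeR adjusted p 0.104). *Nos2*, the inducible nitric oxide synthase, was at 61.1, 15.8 and 39 CPM in WT controls, 13.8, 1.14 and 1.92 CPM in WT recovery, 0.799, 0.858 and 1.02 CPM in *Cldn2*KO controls and 2.76, 9.75 and 8.73 CPM in *Cldn2*KO recovery (log2 interaction 5.73, SE 1.27, edgeR adjusted p 0.117). In both genes every WT recovery library was below every WT control. Every *Cldn2*KO recovery library was above the *Cldn2*KO controls, except replicate 1 for *Duoxa2*, which lay among them. *Sprr1a*, a barrier protein gene, varied widely within groups, at 8.87 to 64.8 CPM in WT controls and 3.44 to 40.1 CPM in *Cldn2*KO recovery (log2 interaction 5.13, SE 1.37, edgeR adjusted p 0.142).

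EGF family ligands, receptors and feedback genes were positive in 19 of 24 cases (median 0.82), 7 at an unadjusted p under 0.05 and none negative at that level, without a call. The median was 0.35 without *Cldn2*KO recovery replicate 3, with 16 positive. *Nrg1*, a ligand of ERBB receptors, was at 2.85, 5.18 and 2.92 CPM in WT controls, 1.43, 1.21 and 1.47 CPM in WT recovery, 1.41, 2.04 and 1.07 CPM in *Cldn2*KO controls and 3.1, 5.31 and 2.83 CPM in *Cldn2*KO recovery (log2 interaction 2.72, SE 0.52, edgeR adjusted p 0.0887). *Hbegf*, an EGF receptor ligand, was at 13.5, 25.5 and 22.6 CPM in *Cldn2*KO controls and 23.5, 62.8 and 106 CPM in *Cldn2*KO recovery, against 19.3 to 33.3 and 10.8 to 21 CPM in WT controls and recovery (log2 interaction 2.28, SE 0.67, edgeR adjusted p 0.157). The EGF receptor ligand *Tgfa* had 17.8 to 24.3 CPM in *Cldn2*KO controls and 42.1 to 60.9 CPM in *Cldn2*KO recovery, and 23.4 to 63 and 16.8 to 33.3 CPM in WT (log2 interaction 1.74, SE 0.51, edgeR adjusted p 0.157). For these 3 ligands the *Cldn2*KO recovery and control libraries did not overlap except for *Hbegf*, where replicate 1 lay among the controls. The log2 interaction was 0.35 for the ligand *Ereg* and -0.47 for the ligand *Egf* (edgeR adjusted p 0.866 and 0.626), and that of *Ereg* turned negative without *Cldn2*KO recovery replicate 3 or WT recovery replicate 2. For the receptors it was 0.97 for *Erbb2* (edgeR adjusted p 0.188) and 0.52 for *Egfr* (edgeR adjusted p 0.291). That of *Mapk3*, a kinase downstream, was 0.70 (edgeR adjusted p 0.262) and 0.40 without WT control replicate 2.

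In the list of fetal-like and wound repair epithelium 19 of 26 genes were positive (median 0.41), with *Plet1* the only call and 6 at an unadjusted p under 0.05. The median was 0.67 without *Cldn2*KO recovery replicate 1 and 0.014 without replicate 3, with 13 positive. *Gprc5a*, an orphan receptor gene, stood at 244, 243 and 288 CPM in WT controls and 76.3, 70.1 and 65.5 CPM in WT recovery, while the *Cldn2*KO libraries stood at 214, 281 and 279 CPM in controls and 96.8, 409 and 443 CPM in recovery (log2 interaction 2.16, SE 0.58, edgeR adjusted p 0.139). Replicate 1 of *Cldn2*KO recovery was low and replicates 2 and 3 were the highest of the 12. *Plaur*, the urokinase receptor, was also highest in replicates 2 and 3, at 7.53, 36.6 and 28.9 CPM in *Cldn2*KO recovery against 1.69 to 3.12 CPM in *Cldn2*KO controls and 6.95 to 9.35 CPM in WT recovery (log2 interaction 2.27, SE 0.65, edgeR adjusted p 0.151). *Krt20*, a keratin of surface epithelium, was at 1691 to 3346 CPM in WT controls, 973 to 1506 CPM in WT recovery, 826 to 1088 CPM in *Cldn2*KO controls and 999 to 2360 CPM in *Cldn2*KO recovery (log2 interaction 1.66, SE 0.48, edgeR adjusted p 0.155).

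Claudins and other tight junction genes were positive in 17 of 23 cases (median 0.38), 6 at an unadjusted p under 0.05 and none called. *Tjp3*, which encodes the scaffold ZO-3, was at 248, 259 and 236 CPM in WT controls and 152, 141 and 139 CPM in WT recovery, with 159.9, 178 and 179.7 CPM in *Cldn2*KO controls and 175, 227 and 217 CPM in *Cldn2*KO recovery (log2 interaction 1.04, SE 0.20, edgeR adjusted p 0.0887). The WT controls were the highest 3 libraries and the WT recovery libraries the lowest 3, with both *Cldn2*KO groups between them. The junction protein gene *Cgn* and the claudin *Cldn7* had log2 interactions of 0.89 and 0.92 (edgeR adjusted p 0.125 and 0.157). For *Cldn7* the level was 689.9 to 833 CPM in WT controls and 341 to 458 CPM in WT recovery, and 490.3 to 560.2 and 395 to 598 CPM in *Cldn2*KO controls and recovery.

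Antigen presentation genes were taken by class. MHC class I and immunoproteasome genes were positive in 18 of 20 cases (median 0.35), 8 at an unadjusted p under 0.05 with a positive value and 1 with a negative value. *Nlrc5*, the transactivator of class I genes, was at 46, 33.1 and 39.3 CPM in WT controls and 16.1, 15.7 and 9.71 CPM in WT recovery, with 1.08, 1.39 and 4.75 CPM and 2.81, 2.92 and 3.45 CPM in *Cldn2*KO controls and recovery (log2 interaction 1.86, SE 0.62, edgeR adjusted p 0.175, and log2 interaction 2.82 without *Cldn2*KO control replicate 3). The *Cldn2*KO levels stayed below WT in both conditions. The nonclassical genes *H2-Q4*, *H2-Q6* and *H2-Q7*, near-identical copies and uncertain, had log2 interactions of 0.99, 2.11 and 2.45 (edgeR adjusted p 0.162, 0.161 and 0.155). MHC class II genes were positive in 6 of 14 cases (median -0.12) and none reached an unadjusted p under 0.05, and their median response was -1.85 in WT and -2.19 in *Cldn2*KO. The *Cldn2*KO controls differed among themselves, with replicate 3 at 1169 CPM summed over the 14 genes, replicates 1 and 2 at 725 and 797 CPM and *Cldn2*KO recovery at 519 to 651 CPM. Without that control the median log2 interaction was 0.91, with 13 positive and 5 of them at an unadjusted p under 0.05. Interferon-induced genes were positive in 21 of 40 cases (median 0.036), 2 of them at an unadjusted p under 0.05. Among them was *Ifi47*, an interferon-inducible GTPase gene, with 3.48 to 9.41 CPM in *Cldn2*KO controls and 19.8 to 31.3 CPM in *Cldn2*KO recovery against 89.2 to 109.6 and 70.4 to 152 CPM in WT (log2 interaction 1.94, SE 0.50, edgeR adjusted p 0.129).

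**Figure D4:**
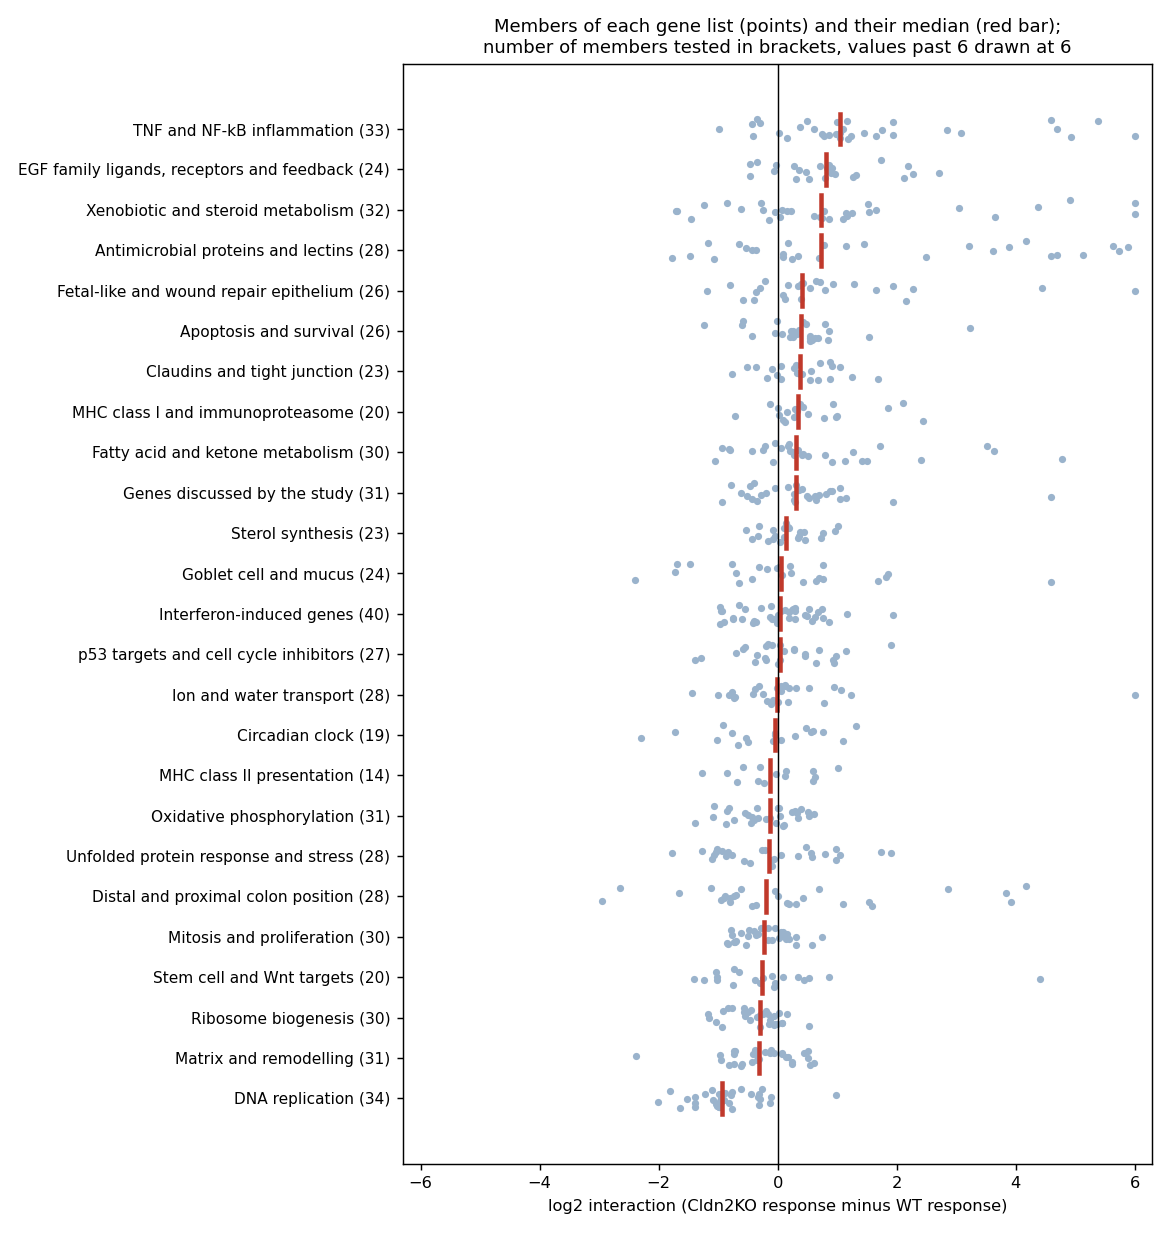
Points are members of each gene list by log2 interaction, and red bars their medians, ordered by the median, with the number of members tested in brackets. TNF and NF-κB inflammation (median 1.05) lies at the top of these pathway lists and DNA replication (median -0.94) at the bottom.

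On the negative side, DNA replication genes had the lowest median of the pathway lists. Of 34 genes 33 were negative (median -0.94), 10 at an unadjusted p under 0.05 where 9.82% of all genes were, and none was called. The median response was 0.42 in WT and -0.57 in *Cldn2*KO. *Rfc4*, a subunit of the clamp loader, stood at 15, 8.62 and 15.7 CPM in WT controls and 30.3, 27.4 and 22.9 CPM in WT recovery, with 15.7, 17.2 and 16.8 CPM in *Cldn2*KO controls and 8.22, 7.53 and 16.9 CPM in *Cldn2*KO recovery (log2 interaction -1.64, SE 0.43, edgeR adjusted p 0.133). *Orc6*, of the origin recognition complex, was at 11.2 to 17, 22.6 to 35.2, 18.2 to 24 and 11.6 to 20.6 CPM in the same order of groups (log2 interaction -1.39, SE 0.36, edgeR adjusted p 0.131). In both genes WT recovery was above WT control in every library, and *Cldn2*KO recovery replicate 3 lay closest to its controls. The DNA polymerase and primase genes *Pole2* and *Prim1* had log2 interactions of -2.0 and -1.80 (edgeR adjusted p 0.151 and 0.157), and *Pcna*, the sliding clamp, -0.79 (edgeR adjusted p 0.177). Averaged over the list, replicates 1 and 2 of *Cldn2*KO recovery were the lowest of the 12 libraries, at -0.91 and -0.73 on a log2 scale centred on the mean of all libraries, and replicate 3 was at 0.35. On this scale WT controls stood at 0.212, -0.521 and 0.137 and WT recovery at 0.682, 0.224 and 0.208. WT control replicate 2 was thus the lowest WT library, with the other WT controls near WT recovery replicates 2 and 3. Without *Cldn2*KO recovery replicate 1 the median was -0.66, with 6 genes at an unadjusted p under 0.05, and without replicate 3 it was -1.47.

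Genes of mitosis and proliferation were negative in 19 of 30 cases (median -0.22), and none reached an unadjusted p under 0.05. The median followed single libraries. It was -1.40 without *Cldn2*KO recovery replicate 3, with 29 negative and 19 of them at an unadjusted p under 0.05, and it was positive at 0.14 and 0.15 without *Cldn2*KO recovery replicates 1 and 2, 0.12 without WT recovery replicate 1 and 0.045 without WT control replicate 2. It was -0.51 without WT control replicate 1, -0.34 without WT recovery replicate 2, and -0.36 and -0.13 without *Cldn2*KO control replicates 2 and 3. *Mki67*, the proliferation marker, was at 386, 139.5 and 269.9 CPM in WT controls, 256, 196 and 170.2 CPM in WT recovery, 184, 157 and 181 CPM in *Cldn2*KO controls and 45.3, 38.8 and 180.5 CPM in *Cldn2*KO recovery (log2 interaction -0.62, SE 0.75, edgeR adjusted p 0.698). Its log2 interaction was -1.69 without *Cldn2*KO recovery replicate 3, -0.998 without WT control replicate 1, -0.32 without WT control replicate 2, -0.42 without WT recovery replicate 1, and -0.28 and -0.27 without *Cldn2*KO recovery replicates 1 and 2. *Birc5*, which encodes Survivin, was at 67.5, 27.1 and 45.1 CPM in WT controls, 53, 36 and 35.4 CPM in WT recovery, 25.8, 17.1 and 31.1 CPM in *Cldn2*KO controls and 9.15, 6.79 and 38.3 CPM in *Cldn2*KO recovery (log2 interaction -0.28, SE 0.81, edgeR adjusted p 0.886, and positive without *Cldn2*KO recovery replicate 1 or 2). In both genes *Cldn2*KO recovery replicates 1 and 2 were the lowest libraries and replicate 3 was well above them. Ribosome biogenesis genes were negative in 25 of 30 cases (median -0.30), 8 at an unadjusted p under 0.05. *Nifk* and *Wdr12*, both needed for the large ribosomal subunit, had log2 interactions of -0.93 and -1.16 (edgeR adjusted p 0.126 and 0.125), with 11.2 to 19.6 CPM in WT controls and 24.8 to 32.2 CPM in WT recovery for *Wdr12*. The median was -0.17 without WT control replicate 2, -0.077 without *Cldn2*KO recovery replicate 1 and -0.56 without replicate 3.

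**Figure D5:**
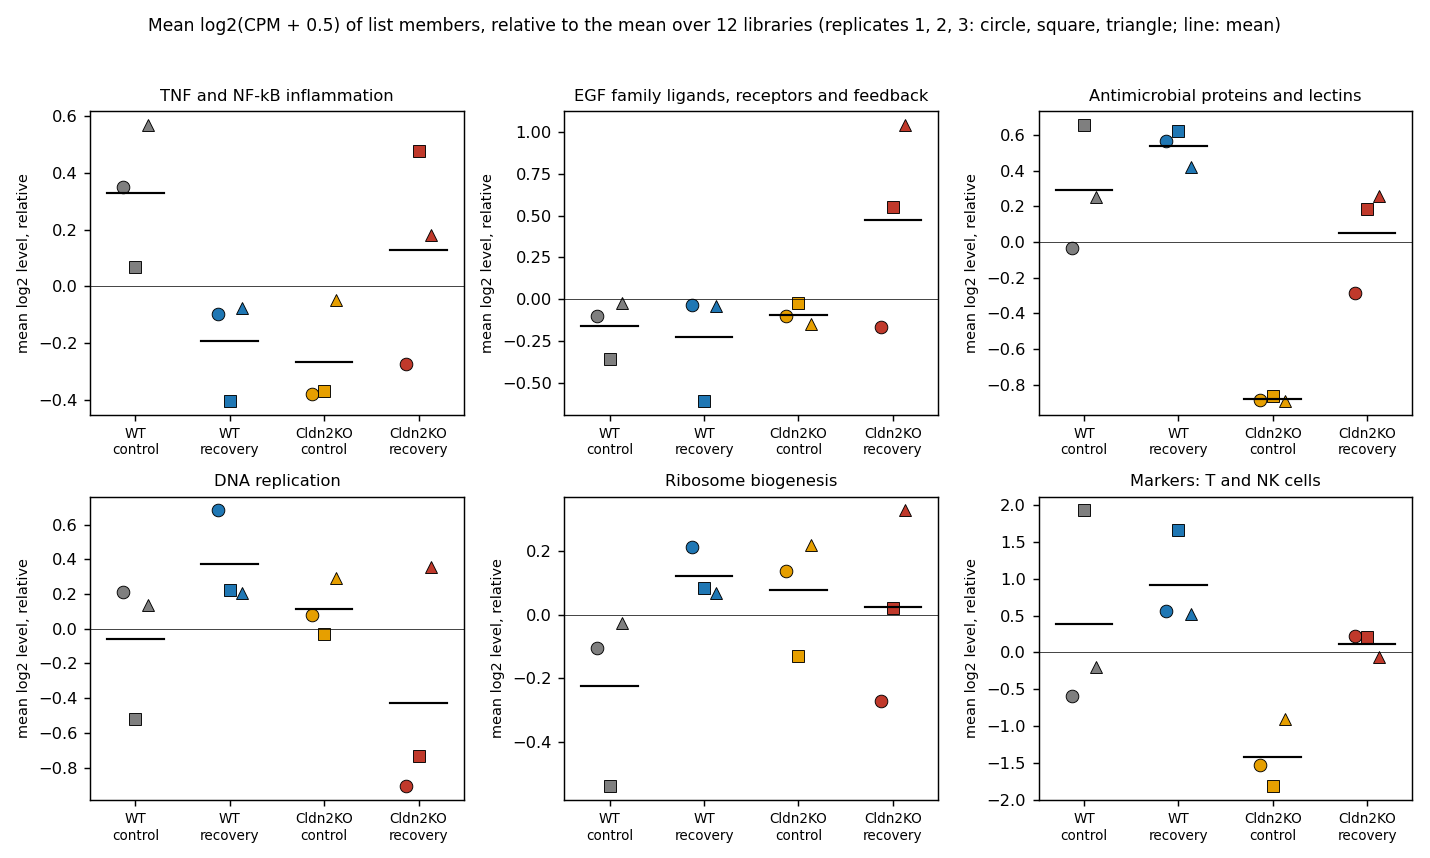
Each panel gives the mean log2(CPM + 0.5) of the members of 1 list in each library, relative to the mean over the 12 libraries, by group, with a line at the group mean. For TNF and NF-κB inflammation and the EGF family, *Cldn2*KO recovery replicate 1 lies below replicates 2 and 3, and for DNA replication replicate 3 lies above replicates 1 and 2.

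Lists of cell stress and death were mixed. Of 27 p53 targets and cell cycle inhibitors 15 were positive (median 0.033), with 4 at an unadjusted p under 0.05 in each direction. *Cdkn1a*, the p53 target that encodes p21, was at 287, 240 and 257 CPM in WT controls and 108, 111 and 135 CPM in WT recovery, with 206, 221 and 195 CPM in *Cldn2*KO controls and 161, 262 and 197 CPM in *Cldn2*KO recovery (log2 interaction 1.14, SE 0.26, edgeR adjusted p 0.117). It was lower in WT recovery than in any other library, and the *Cldn2*KO groups overlapped. *Mdm2* had a log2 interaction of 0.64 and *Phlda3* of -1.29 (edgeR adjusted p 0.155 and 0.195). Apoptosis and survival genes were positive in 20 of 26 cases (median 0.40), 5 at an unadjusted p under 0.05 and 3 negative at that level. *Ripk3*, a kinase of necroptosis, stood at 51.8, 51.8 and 44.5 CPM in WT controls, 40.0, 34.9 and 24.7 CPM in WT recovery, 18.7, 18.4 and 21.5 CPM in *Cldn2*KO controls and 18.7, 42.6 and 52.7 CPM in *Cldn2*KO recovery (log2 interaction 1.53, SE 0.43, edgeR adjusted p 0.148). The smallest p of the list was that of *Bik*, a pro-apoptotic member of the BCL2 family, at 2.65 to 3.12 CPM in WT controls, 5.7 to 7.27 CPM in WT recovery, 4.23 to 6.13 CPM in *Cldn2*KO controls and 4.3 to 4.7 CPM in *Cldn2*KO recovery (log2 interaction -1.25, SE 0.31, edgeR adjusted p 0.125). Unfolded protein response genes were negative in 17 of 28 cases (median -0.15). The chaperones *Hspa5* and *Hsp90b1* had 396 to 713 and 346 to 505 CPM in WT controls, 688 to 874 and 509.7 to 651 CPM in WT recovery, 864 to 928 and 516 to 617 CPM in *Cldn2*KO controls and 416 to 689 and 335 to 428 CPM in *Cldn2*KO recovery (log2 interactions -1.07 and -1.10, edgeR adjusted p 0.166 and 0.125).

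Secretory and metabolic genes followed no single direction. Goblet cell and mucus genes were positive in 13 of 24 cases (median 0.051), with 3 positive and 3 negative at an unadjusted p under 0.05. *Clca1*, a mucus-associated protease gene, stood at 1124, 538 and 1258 CPM in WT controls and 1241, 2201 and 2215 CPM in WT recovery, with 2257, 2368 and 1973 CPM in *Cldn2*KO controls and 1577, 925 and 1379 CPM in *Cldn2*KO recovery (log2 interaction -1.72, SE 0.47, edgeR adjusted p 0.14). *Klk1*, a kallikrein gene of the goblet cell list, had a log2 interaction of -2.40 (edgeR adjusted p 0.131). WT control replicate 2 was the lowest library for both, as it was for *Agr2* (log2 interaction -1.70, SE 0.65, edgeR adjusted p 0.214), a disulfide isomerase gene of goblet cells. Of the opposite sign were *Galnt12*, which encodes an enzyme of mucin-type glycosylation, at 58.9 to 94.6, 125 to 149.5, 38.9 to 45.6 and 112 to 143 CPM in WT controls, WT recovery, *Cldn2*KO controls and *Cldn2*KO recovery (log2 interaction 0.77, SE 0.26, edgeR adjusted p 0.181), and the membrane mucin gene *Muc4*, at 58.3, 137 and 63.3 CPM in WT controls and 51.9 to 84.7, 32.2 to 43.7 and 46.2 to 178 CPM in the other groups (log2 interaction 1.83, SE 0.67, edgeR adjusted p 0.202, with 1.07 after leaving out *Cldn2*KO recovery replicate 3). Oxidative phosphorylation genes were negative in 17 of 31 cases (median -0.12), with *Ndufa4* at 128 to 174 CPM in WT controls, 333 to 698 CPM in WT recovery, 144 to 181 CPM in *Cldn2*KO controls and 194 to 217 CPM in *Cldn2*KO recovery (log2 interaction -1.38, SE 0.37, edgeR adjusted p 0.133, and -0.90 without WT recovery replicate 2). Among circadian genes, negative in 11 of 19 cases (median -0.044), *Dbp*, an output gene of the clock, was at 25.5, 37.1 and 17.5 CPM in WT controls, 9.93, 26.9 and 8.58 CPM in WT recovery, 65.4, 83.5 and 65.4 CPM in *Cldn2*KO controls and 11.4, 2.79 and 10.6 CPM in *Cldn2*KO recovery (log2 interaction -2.29, SE 0.76, edgeR adjusted p 0.177). The clock repressor *Per2* was at 94.6 to 126 CPM in *Cldn2*KO controls and 31.5 to 53.4 CPM in the 9 other libraries (log2 interaction -0.91, SE 0.22, edgeR adjusted p 0.12). The time of day at which tissue was taken was not stated in the labels. Genes of xenobiotic and steroid metabolism had a median of 0.73 (22 of 32 positive), which was -0.45 without WT control replicate 2. Those of fatty acid and ketone metabolism had a median of 0.31 (21 of 30 positive), which was -0.058 without it.

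Markers of other cell types moved with the groups, and in bulk tissue fewer cells of a type cannot be told apart from less RNA per cell. Smooth muscle markers were negative in 15 of 16 cases (median -0.95), 6 at an unadjusted p under 0.05. Their summed level was 5622 to 8000 CPM in WT controls, 1495 to 3200 CPM in WT recovery, 10910 to 13990 CPM in *Cldn2*KO controls and 1582 to 2489 CPM in *Cldn2*KO recovery, and none of the 16 was at 0. *Acta2*, smooth muscle actin, was at 487 to 725, 117 to 217, 966 to 1302 and 104 to 187 CPM in these groups (log2 interaction -1.08, SE 0.40, edgeR adjusted p 0.2). Every *Cldn2*KO control was above every WT control in summed muscle transcripts, and the 2 recovery groups overlapped. T and NK cell markers were positive in 19 of 19 cases tested (median 1.90), 6 at an unadjusted p under 0.05, and the median was 0.45 without WT control replicate 2, with 16 positive. Their summed level over 20 markers was 25.7 to 238 CPM in WT controls, 94.0 to 260 CPM in WT recovery, 5.73 to 21.1 CPM in *Cldn2*KO controls and 48.4 to 66.0 CPM in *Cldn2*KO recovery, with 1 and 4 markers at 0 in *Cldn2*KO control replicates 1 and 2. The T cell gene *Cd3e* was at 0.235, 0.0536 and 0.102 CPM in *Cldn2*KO controls and 1.92, 1.83 and 1.56 CPM in *Cldn2*KO recovery. Summed macrophage and dendritic cell markers were at 278 to 420 CPM, 106 to 143 CPM, 160 to 435 CPM and 76.2 to 85.3 CPM in WT controls, WT recovery, *Cldn2*KO controls and *Cldn2*KO recovery (median log2 interaction 0.031). The summed level of 14 neutrophil markers was 493, 1.87 and 448 CPM in WT controls, 9.80 to 86.7 CPM in WT recovery, 327 to 511 CPM in *Cldn2*KO controls and 17.3 to 84.1 CPM in *Cldn2*KO recovery, with 7 to 9 markers at 0 in the *Cldn2*KO controls. The sum in controls other than WT replicate 2 was mostly *Ly6g*, a neutrophil surface marker that is also in the list of colon position genes, at 327 to 510.5 CPM in *Cldn2*KO controls and 13.5 to 59.7 CPM in *Cldn2*KO recovery (log2 interaction -0.73, SE 1.94, edgeR adjusted p 0.875, and -1.39 to -0.037 with 1 library left out). Like *Hoxb13* it was low in WT control replicate 2, at 0.542 CPM, and the part of position in the sum was not tested. Of the 14 markers 5 passed the filter, 4 of them positive. Unlike the sum, *S100a8* and *S100a9* had their *Cldn2*KO recovery libraries above all *Cldn2*KO controls. *S100a8* and *S100a9* were at 0.984, 9.8 and 2.64 and 1.28, 9.67 and 4.01 CPM in *Cldn2*KO recovery, with 2 reads each over the *Cldn2*KO controls, ratios of 139 and 154 with 95% counting intervals of 38.1 to 1152 and 42.2 to 1274 (edgeR adjusted p of the interaction 0.193 and 0.35). Epithelial markers were positive in 12 of 14 cases (median 0.37). The part of these cell types in the differences of the other lists was not tested.

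Of 31 tested genes that the study discusses, 20 were positive (median 0.30), 8 with an unadjusted p under 0.05 and a positive value and 2 with a negative one, and none was called. The study discusses them beside its own work on these samples, so the counts are not taken as independent evidence of a direction. *Stat3* was at 118, 95.2 and 108 CPM in WT controls, 75.1, 52.8 and 75.9 CPM in WT recovery, 96.6, 93.5 and 89.7 CPM in *Cldn2*KO controls and 70.9, 124 and 117 CPM in *Cldn2*KO recovery (log2 interaction 0.81, SE 0.30, edgeR adjusted p 0.201). Its libraries overlapped between the 2 genotypes in recovery, where *Cldn2*KO replicate 1 lay within WT. *Il1b*, an inflammatory cytokine gene, was at 2.25, 2.83 and 3.54 CPM in WT controls and 1.93, 1.41 and 1.47 CPM in WT recovery, against 0.423, 0.214 and 1.33 CPM and 0.787, 0.827 and 2.64 CPM in *Cldn2*KO controls and recovery (log2 interaction 1.94, SE 0.84, edgeR adjusted p 0.258, with 1.13 without *Cldn2*KO recovery replicate 3 and 2.95 without *Cldn2*KO control replicate 3). *Myc*, a growth regulator and Wnt target, was at 8.8 to 12.4, 11.9 to 17.6, 8.36 to 15.3 and 9.84 to 39.4 CPM in these groups (log2 interaction 0.28, SE 0.60, edgeR adjusted p 0.843, and negative without *Cldn2*KO recovery replicate 3), and *Ly6a*, a marker of injured epithelium, at 235 to 2026, 503 to 649, 336 to 508 and 145 to 372 CPM (log2 interaction 0.65, SE 0.85, edgeR adjusted p 0.721, and 0.32 to 1.15 with 1 library left out). Counting by strand was not stated, and *Plet1*, *Plet1os*, *Pim1*, *Nt5c3b*, *Stat3*, *Duoxa2*, *Nrg1*, *Tgfa*, *Erbb2*, *Egfr*, *Tjp3*, *H2-Q4*, *Ifi47*, *Rfc4*, *Wdr12*, *Hsp90b1*, *Klk1*, *Dbp* and *Vil1* overlap a gene on the other strand, so their values are uncertain by the reads of that gene.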

How the data were processed

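RNA-seq of colon tissue was analysed from 12 mouse libraries in 4 groups of 3. The authors deposited raw read counts of each gene, made with featureCounts of the Subread package on GRCm38 and not normalized. The study's methods name TopHat2 as the aligner and the submitters' processing notes name HISAT2. Versions, the annotation release and strandedness were not given in the sources used here. Counts of the 2 lanes of a library were summed, and symbols came from GENCODE M21, which held 47310 of 47729 genes (the 419 others had at most 0.0292% of reads). No column of per-sample values was left unused, and every row named a gene.

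Genes were kept with filterByExpr (16308 kept, 31421 dropped), libraries scaled with TMM, and 1 mean per group fitted with edgeR 4.0.16 (R 4.3.3; quasi-likelihood, robust; 8 residual degrees of freedom; biological coefficient of variation 0.302). A gene was called where its p, adjusted over all genes by Benjamini-Hochberg, was under 0.05. Responses within a genotype came from the same fit and share its libraries. Alternatives used RLE and upper-quartile scaling, DESeq2 1.42.0, a minimum of 1 CPM in 3 libraries or no filter, limma-voom (limma 3.58.1), all 18 libraries, *Xist* or the replicate block as a term, other thresholds, and each library left out. The list medians under them were added after seeing the data. On simulated counts for the interaction (16103 genes, 50 changed per size) edgeR recovered 2% of 2-fold, 64% of 4-fold, 82% of 8-fold and 92% of 16-fold changes, with 1 false call. Apart from the changed genes, these counts were drawn around 1 mean per gene. They held no shift of a whole library such as that of WT control replicate 2, so the rates may differ in the real libraries. The lowest chi-square per degree of freedom over the 12 pairs of libraries within a group was 11.9, so no library was a copy of another in its group. Ratios on few reads have exact 95% intervals that cover counting error only.

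The members and the 39 gene lists were chosen with earlier results of these data known. Named were called genes with a mean of at least 1 CPM in a group and a common symbol (up to 15 per direction), those with the smallest p up to 10 per direction, *Cldn2*, and from each list called members and up to 4 with the smallest p, with any gene the study discusses. *Gm28438* and the library markers *Hoxb13*, *Xist* and *Adipoq* were singled out after their values were seen.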

Additional observations from a re-analysis of the deposited data

Results flagged for a closer look

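For 9 genes the response to DSS recovery differed between the genotypes by the test of the difference itself (edgeR, adjusted p under 0.05 over 16308 genes). The log2 interaction was 6.76 for *Plet1*, 6.64 for *Plet1os*, 3.09 for *Zc3h12a*, 2.37 for *Socs3*, 2.14 for *Ddah1* and 1.66 for *Nfkbiz*. It was -2.62 for *Tpd52l1*, -1.58 for *Gstt1* and -3.84 for *Gm28438*. No group had more than 3 libraries, so no search for single outlying values within a group was made.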

How the results depend on the processing

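Of 9 genes called, the count was 8 with RLE size factors, 14 with upper-quartile scaling, 16 without a filter, 9 with at least 1 CPM in 3 libraries, 721 with DESeq2, 1561 with limma-voom, 22 with all 18 libraries in the fit (5 of the 9 among them), 1 with *Xist* as a covariate, 1 at an adjusted p under 0.01 and 50 under 0.10. Leaving out 1 library gave 0 to 157 calls. The count moved by over 1.5 times without any library other than *Cldn2*KO recovery replicate 3. It was 157 without *Cldn2*KO recovery replicate 1, 69 without WT control replicate 2, 2 without *Cldn2*KO control replicate 3, *Cldn2*KO recovery replicate 2 or WT control replicate 1, 1 without *Cldn2*KO control replicates 1 or 2, WT recovery replicates 1 or 3 or WT control replicate 3, and 0 without WT recovery replicate 2, where edgeR left 2470 genes at an unadjusted p under 0.05. The 9 genes had the same sign in every alternative. With the replicate block for controls 1 gene was called. Controls with the same number had correlated deviations of 0.166, 0.005 and 0.082, so the numbers were not taken as pairs, and recovery libraries share no numbers.

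*Birc5* had a log2 interaction of -0.28, and its sign turned without *Cldn2*KO recovery replicate 1 or 2. Without 1 library it ranged from -1.47 to 0.111. The signs of *Hoxb8*, *Nts*, *Ereg* and *Myc* turned with limma-voom, to -0.421, -0.472, -0.681 and -0.061. With 1 library left out they ranged from -0.457 to 4.809, from -1.187 to 5.227, from -0.502 to 0.808 and from -0.506 to 0.655, the first pair turning without WT control replicate 2 and the others without *Cldn2*KO recovery replicate 3, with *Ereg* also at -0.013 without WT recovery replicate 2. Why these values moved was not tested. At 3 libraries a group and 17.6 to 26.0 M reads, edgeR recovered few simulated 2-fold differences (2%), so a gene without a call is not shown to respond alike.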

Other observations

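Genes of colon position differed among the WT controls, and their part in the interaction was not tested. Of 28 tested genes of distal and proximal colon position 13 were positive (median -0.20), and without WT control replicate 2 only 4 were. *Hoxb8*, a gene of more anterior position, was at 0.296, 22.7 and 0.312 CPM in WT controls, 17.1 to 29.7 CPM in WT recovery, 0.256 to 0.611 CPM in *Cldn2*KO controls and 15.6 to 28 CPM in *Cldn2*KO recovery (log2 interaction 4.18, SE 1.86, edgeR adjusted p 0.27, and -0.46 without WT control replicate 2). WT control replicate 2 stood with the recovery libraries. The small intestine and other tissue list, with 7 of 10 positive and a median of 2.42, had a median of -0.15 without that library. *Nts*, an enteroendocrine peptide gene, was at 0.111, 33.8 and 0.416 CPM in WT controls and 0.153 to 0.329 CPM in *Cldn2*KO controls, against 42.9 to 147 and 23.8 to 50.6 CPM in recovery (log2 interaction 4.31, SE 2.25, edgeR adjusted p 0.334, and -1.19 without WT control replicate 2). *Retnlb*, a goblet cell antimicrobial gene, was at 7.32, 198 and 17.2 CPM in WT controls, 399, 388 and 1474 CPM in WT recovery, 0.705, 1.34 and 0.307 CPM in *Cldn2*KO controls and 74.6, 69.2 and 439.6 CPM in *Cldn2*KO recovery (log2 interaction 4.60, SE 1.82, edgeR adjusted p 0.23, and 2.01 without WT control replicate 2). In it too WT control replicate 2 was the highest control.

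The lists not described above had no called gene in the edgeR test. Stem cell and Wnt target genes were negative in 14 of 20 cases (median -0.27), matrix and remodelling genes in 20 of 31 (median -0.32) and fibroblast markers in 12 of 13 (median -0.72). Endothelial markers were positive in 12 of 12 cases (median 0.47) and markers of enteric neurons and glia in 13 of 15 (median 0.34), while none of the endothelial and 2 of the neuronal markers had an unadjusted p under 0.05. B and plasma cell markers were positive in 11 of 15 cases (median 0.66), with *Igha* at 708 to 862 CPM in WT controls, 88.4 to 155 CPM in WT recovery, 8.41 to 96.3 CPM in *Cldn2*KO controls and 21.1 to 24.4 CPM in *Cldn2*KO recovery (log2 interaction 1.54, SE 0.84, edgeR adjusted p 0.35). Without *Cldn2*KO control replicate 3, the highest *Cldn2*KO control over these markers (659 CPM summed, against 400.5 and 289 CPM in replicates 1 and 2), the median was 2.40, with 14 positive and 11 of them at an unadjusted p under 0.05. Leaving out either of the other *Cldn2*KO controls gave medians of 0.087 and 0.084. Sterol synthesis genes were positive in 15 of 23 cases (median 0.14), ion and water transport genes in 13 of 28 (median -0.006), colonocyte markers in 8 of 15 (median 0.50), goblet cell markers in 4 of 10 (median -0.22), enteroendocrine markers in 10 of 16 (median 0.19) and tuft cell markers in 7 of 9 (median 0.53).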
